A study of Sus scrofa with 6 samples.

Results

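The genes described here encode the proteasome and its immune form, read in the peripheral blood mononuclear cells (PBMCs) of pigs. They were found by symbol, as every row of the deposited table whose symbol begins with PSMA, PSMB, PSMC, PSMD, PSME, PSMF or PSMG. This gave 31 rows of 11564, and all 31 had enough expression to be tested. Of the 5 immune subunits set against the rest, 4 were listed (PSMB8, PSMB9, PSME1 and PSME2), which leaves 27 other members. Among those 27 is PSMC3IP, which the spelling of its symbol brings in. Its product works in meiotic recombination and is not a proteasome subunit, so 30 rows belong to the proteasome or its assembly. PSMB10, the remaining inducible catalytic subunit, and PSMB5, which PSMB8 replaces, were not analysed here, nor was PSMF1.

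The libraries came from 6 pigs aged 6 months, 3 labelled WT (wild type, not transgenic) and 3 labelled Leptin-overexpressing. The transgene was the pig leptin coding sequence, which the study's text places behind a pig leptin promoter. The transgenic animals were cloned by nuclear transfer from Yorkshire fetal fibroblasts, transfected and then selected with neomycin. PBMCs hold the lymphocytes and monocytes of the blood. The purpose was to see how excess leptin changes gene expression in circulating immune cells.

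The proteasome is the barrel-shaped protease that degrades proteins tagged with ubiquitin. Its core has outer rings of alpha subunits (PSMA) and inner rings of beta subunits (PSMB), 3 of which carry the catalytic sites. A regulatory particle made of ATPases (PSMC) and other proteins (PSMD) recognises, unfolds and feeds in the substrate. Interferon gamma induces replacement catalytic subunits, PSMB8, PSMB9 and PSMB10, and an alternative cap made of PSME1 and PSME2. This immunoproteasome cuts proteins into peptides suited to display on MHC class I, and blood lymphocytes carry much of it at rest.

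Levels are FPKM, sequenced fragments scaled to transcript length and library size, as the authors deposited them. Differences between labels are log2 fold changes of FPKM + 1, leptin-overexpressing minus wild type, from limma over the 10735 genes with at least 1 FPKM in at least 3 libraries. With 3 libraries against 3, an exact permutation test (two-sided) cannot give a p below 0.1. FPKM sums lay between 444888 and 449653 in the wild type libraries and between 467276 and 503140 in the others, and read depth is unknown. LEP (ENSSSCG00000016588, chromosome 18, 21201785 to 21204671), the gene of the transgene, had 50.01 FPKM in wild type replicate 1, a listed 0 in replicate 2 and 0.118 FPKM in replicate 3 of that label. Leptin-overexpressing replicate 1 was listed at 0, and LEP reached 18.3 and 39.3 FPKM in replicates 2 and 3. LEP therefore goes against the label of both replicate 1 libraries, and every direction below is that of the libraries as labelled, with values without those 2 given for the members described by library, for their medians and for the counts of direction and overlap. Intervals and the counts and medians of other gene lists use all 6 libraries only. PBMC markers were present, with 14 of 14 T cell, 6 of 10 B cell, 8 of 9 NK cell and 8 of 10 monocyte symbols listed. In RNA from mixed cells, fewer cells of a type and less RNA per cell cannot be told apart.

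**Figure D1:**
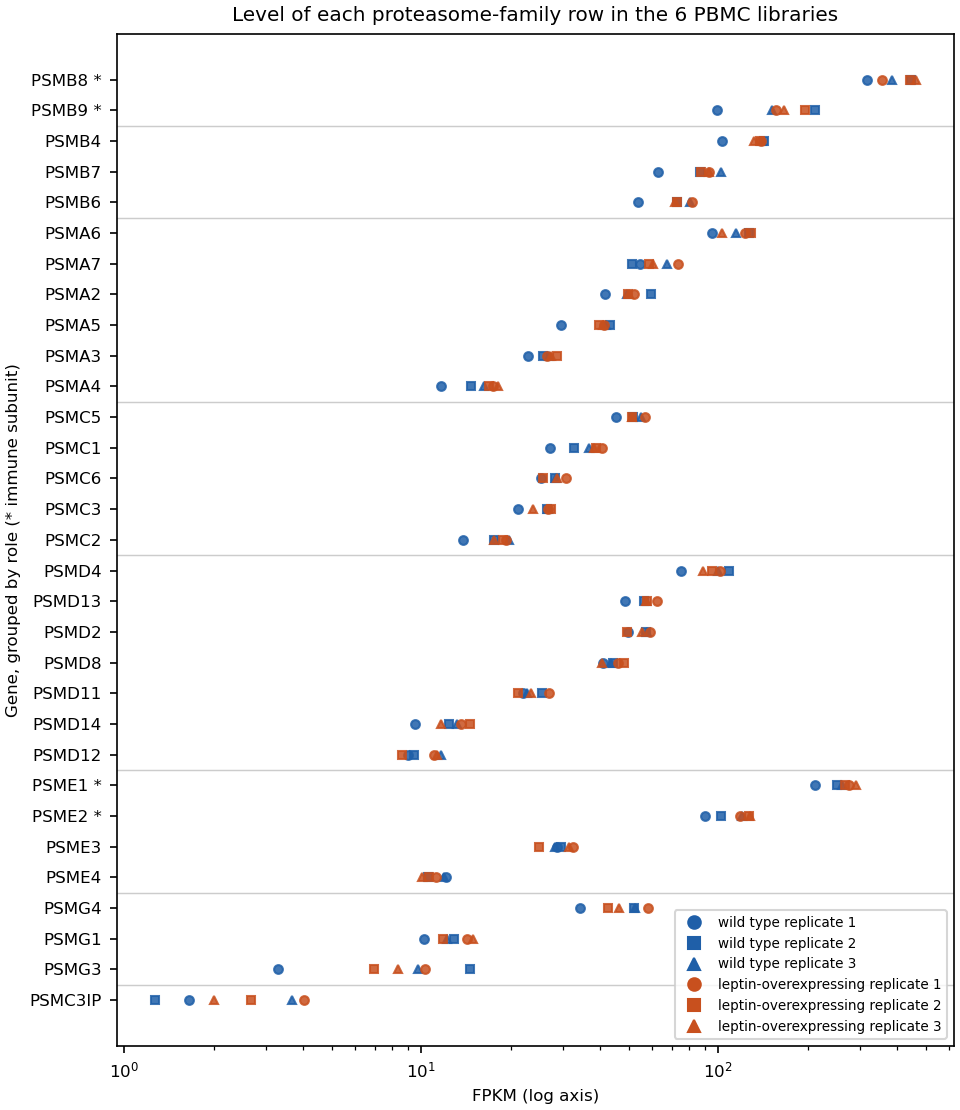
FPKM of each of the 31 members on a log axis, with 1 point per library, blue for wild type and orange for leptin-overexpressing, grouped by role. PSMB8 (mean 402 FPKM) and PSME1 (mean 260 FPKM) stand at the top, PSMC3IP (mean 2.55 FPKM) at the bottom, and the points of the labels mix in most rows.

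Among the proteasome genes, 3 of the 4 immune subunits had the highest mean levels. PSMB8 (ENSSSCG00000028872, chromosome 7, 29425066 to 29428872 in the coordinates of the table) had a mean of 402 FPKM over the 6 libraries, rank 175 of the 11564 genes. PSME1 followed with 260 FPKM (rank 282) and PSMB9 with 164 FPKM (rank 450). Then came PSMB4, a beta subunit of the inner ring that carries no catalytic site, with 133 FPKM, PSMA6, an alpha subunit, with 115 FPKM, and PSME2 with 114 FPKM. Every library had PSMB8 above PSME1 and PSME1 above PSMB9, and the ranges of these 3 genes did not overlap. PSMB9 and PSMB4 had overlapping ranges, and in wild type replicate 1 PSMB4 (103 FPKM) was above PSMB9 (99.1 FPKM). PSMB4 was above PSMA6 and PSME2 within 6 of 6 libraries, though their ranges overlapped, while the order of PSMA6 and PSME2 changed between libraries. PSMB6 and PSMB7, the catalytic subunits that PSMB9 and PSMB10 replace, had means of 72.0 and 87.4 FPKM.

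Although core subunits are built in at equal number, their RNA levels were unequal. The 6 alpha ring genes ran from 15.9 FPKM (PSMA4) to 115 FPKM (PSMA6), a 7.26-fold range. The 5 ATPases ran from 17.8 FPKM (PSMC2) to 51.9 FPKM (PSMC5), a 2.91-fold range. The 7 other genes of the regulatory particle ran from 10.2 FPKM (PSMD12) to 94.8 FPKM (PSMD4, the ubiquitin receptor), a 9.31-fold range. Between libraries, in contrast, most members varied little. The standard deviation of log2(FPKM + 1) over the 6 libraries had a median of 0.18 for the members and of 0.22 for all genes tested, and it was below the latter in 26 of 31 members. The genes compared were not matched for expression level, so low spread is not shown to be particular to the members. PSMG3, an assembly chaperone, varied most with 0.63, then PSMC3IP with 0.46 and PSMB9 with 0.38, while PSMD8 of the regulatory particle varied least with 0.096.

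By label, no member passed the test. None of the 31 had an adjusted p under 0.05 in limma (0 members, against 0.00932% of all genes tested) and 0 had an unadjusted p under 0.05 (3.18% of all genes tested). Both counts were also 0 without wild type replicate 1 and without both replicate 1 libraries. In the main fit, with all 6 libraries, the lowest unadjusted p was 0.103 and the adjusted p was at least 0.993 in limma. Without wild type replicate 3 the adjusted p in limma was 0.614 for PSME2, PSMA4, PSMC1 and PSMC3IP. The 95% interval of the log2 fold change included 0 for all 31 and lay within 1 log2 unit of 0, that is within a 2-fold change either way, for 29 of them. PSMG3 (upper bound 1.05) and PSMC3IP (upper bound 1.02) were the exceptions.

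**Figure D2:**
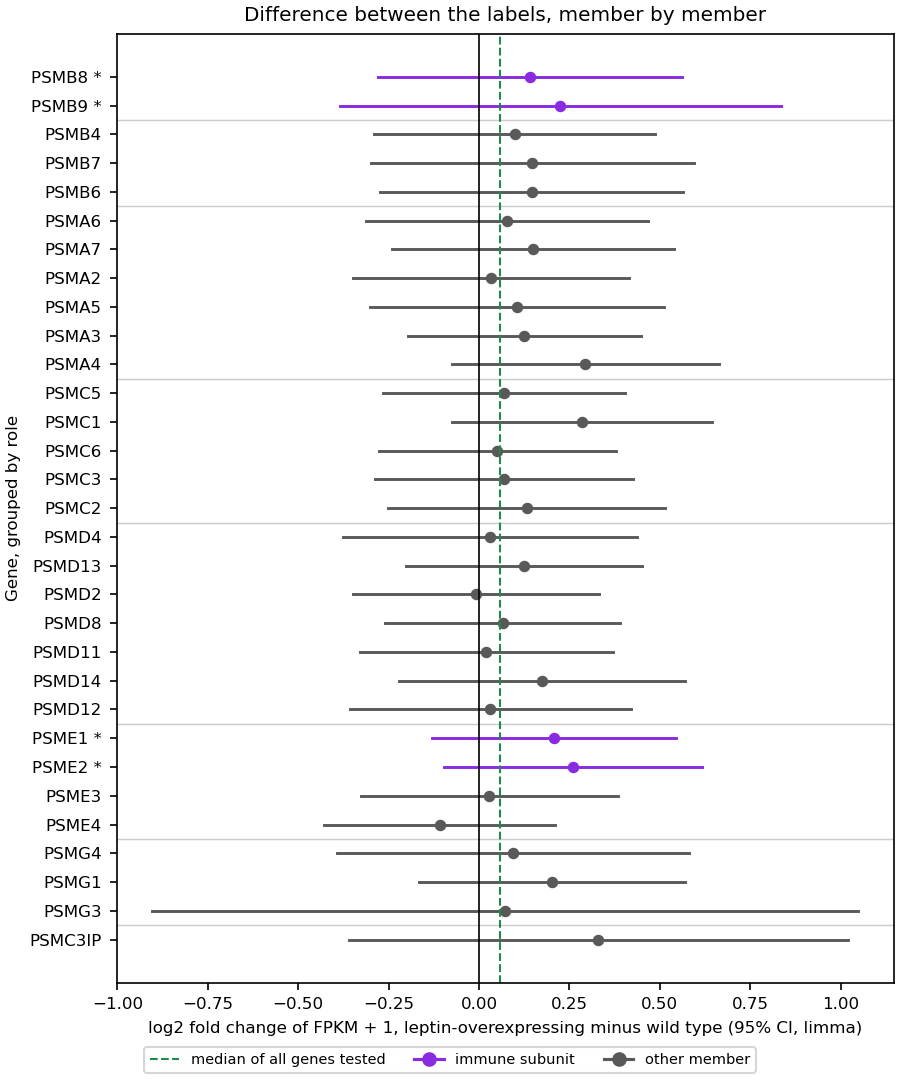
Log2 fold change of FPKM + 1 (points, leptin-overexpressing minus wild type, 3 libraries each) with its 95% interval from limma (lines) for each member, immune subunits in purple. All 31 intervals cross 0, and the dashed line marks the median over all genes tested, 0.059.

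Point estimates leaned to one side. The log2 fold change was above 0 for 29 of the 31 members, against 63.1% of all genes tested, with a median of 0.10 for the members and 0.059 for all genes. This lean rested on wild type replicate 1. Without that library 14 of 31 were above 0 (51.6% of all genes), with a median of -0.0077 against 0.0066 for all genes. Without both replicate 1 libraries 13 of 31 were (43.2% of all genes), with a median of -0.055 against -0.032 for all genes. After median-of-ratios scaling, which sets the libraries to a common level, 23 of 31 were above 0 against 50.5% of the genes tested, the median of the members was 0.040, and the median over all genes fell by 0.057.

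Wild type replicate 1 held the lowest value of 23 of the 31 members, including all 4 immune subunits and 19 of the 27 others. It was the lowest library for 37.5% of all genes tested. With median-of-ratios scaling the count was 16 of 31, against 23.9% of all genes. PSME4, the nuclear cap also called PA200, was the 1 member with its highest value there. The same library differed in some of its cell type markers. T cell genes did not set it apart, with a sum of 1504 FPKM there and of 1040 to 1771 FPKM elsewhere. NK cell genes summed to 641 FPKM there and to 261 to 593 FPKM elsewhere. Neutrophil genes, of which 7 of 11 symbols were listed, summed to 3528 FPKM in wild type replicate 1, to 413 and 695 FPKM in the other wild type libraries and to between 412 and 1269 FPKM in the leptin-overexpressing libraries. That sum is nearly all S100A12 (1702 FPKM there), S100A9 (1031 FPKM there) and S100A8 (699 FPKM there). Elsewhere S100A8, a gene that monocytes also express, stood at 66.5 to 225 FPKM. The granule protein gene LTF was at 25.6 FPKM there and at 2.48 to 9.92 FPKM elsewhere. MMP9, also on that list, did not follow, with 59.7 FPKM there and its highest value, 225 FPKM, in leptin-overexpressing replicate 2. B cell genes summed to 381 FPKM in wild type replicate 1, to 668 and 678 FPKM in the other wild type libraries and to between 552 and 661 FPKM in the leptin-overexpressing libraries. Erythroid genes, with 2 of 8 symbols listed, summed to 217 FPKM there and to 21.8 to 102 FPKM elsewhere. That sum is nearly all HBB (211 FPKM there), and ALAS2, the other gene listed, did not follow, with 5.70 FPKM there and 3.85 to 6.86 FPKM elsewhere. Monocyte genes summed to 888 FPKM there, to 389 and 480 FPKM in the other wild type libraries and to between 546 and 916 FPKM in the leptin-overexpressing libraries, and platelet genes, with 6 of 7 listed, to 459 FPKM there and to 142 to 411 FPKM elsewhere. MS4A1, which defines B cells, was above 0 in every library. The part of these cell types in the low proteasome values was not tested.

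**Figure D3:**
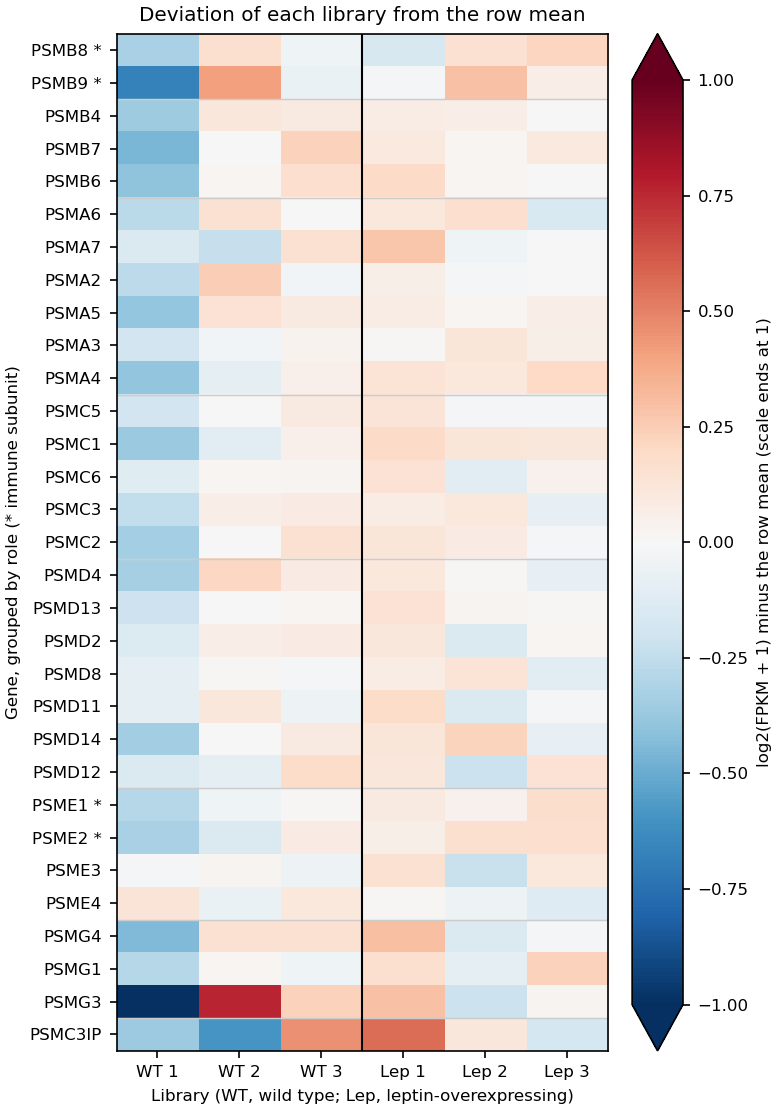
Colour gives log2(FPKM + 1) of each library minus the mean of the row over the 6 libraries, for the 31 members by role. The column of wild type replicate 1 is blue in most rows (lowest library for 23 members), and PSMB9, PSMG3 and PSMC3IP show the widest spread.

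The inducible catalytic subunits were read next. PSMB8, which carries the chymotrypsin-like site of the immunoproteasome, was at 317, 445 and 386 FPKM in wild type replicates 1, 2 and 3 and at 357, 444 and 462 FPKM in leptin-overexpressing replicates 1, 2 and 3. These give 383 ± 63.9 (SD, n = 3) and 421 ± 56.4 FPKM (SD, n = 3), a log2 fold change of 0.14 (95% interval -0.28 to 0.56). The groups overlapped, and the replicate 1 library of each label was its lowest. The PSMB8 value was 0.013 without wild type replicate 1 and 0.26 without wild type replicate 2 or without leptin-overexpressing replicate 1. It was 0.069 without leptin-overexpressing replicate 3, 0.13 without both replicate 1 libraries and 0.075 with median-of-ratios scaling. PSMB9 (ENSSSCG00000001468, chromosome 7, 29437936 to 29444130), which takes the place of PSMB6, was at 99.1, 211 and 152 FPKM in the wild type libraries. In the leptin-overexpressing libraries it was at 157, 195 and 167 FPKM. Both the lowest and the highest PSMB9 value thus carried the wild type label, and the log2 fold change was 0.23 (95% interval -0.39 to 0.84). The PSMB9 log2 fold change was -0.058 without wild type replicate 1, 0.0084 without both replicate 1 libraries, 0.48 without wild type replicate 2 and 0.13 without leptin-overexpressing replicate 2.

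The interferon-induced cap genes lie side by side on chromosome 7, PSME2 (ENSSSCG00000002004) from 80425839 to 80429278 and PSME1 (ENSSSCG00000002006) from 80433125 to 80435858, with 3846 bp between them. PSME1 encodes the alpha subunit of the 11S cap and was at 212, 251 and 261 FPKM in the wild type libraries. It was at 276, 266 and 292 FPKM in the leptin-overexpressing libraries, so the groups did not overlap. The means were 242 ± 25.9 (SD, n = 3) and 278 ± 12.9 FPKM (SD, n = 3), which is 0.21 on the log2 scale (95% interval -0.13 to 0.54, adjusted p = 0.993 in limma). PSME2, the beta subunit of the same cap, was at 90.6, 102 and 120.0 FPKM and then at 118, 127 and 128 FPKM. Its groups overlapped by 1 library on each side, and the log2 fold change was 0.26 (95% interval -0.10 to 0.62). With another pseudocount, median-of-ratios scaling or libraries left out, which are the settings that can move the estimate, PSME1 lay between 0.12 and 0.27 and PSME2 between 0.16 and 0.36. Their lowest values came without wild type replicate 1, and without both replicate 1 libraries they were 0.12 and 0.20.

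PSME1 was 1 of 3 members (9.68%) whose groups did not overlap, against 7.63% of all genes tested. All 3 were higher in the leptin-overexpressing libraries, as were 537 of the 10735 genes tested, and 0 were lower, against 2.63% of all genes. This split depended on single libraries. Without wild type replicate 1, 3 members lay above and 2 below (7.42% and 7% of all genes). Without wild type replicate 3, 9 lay above and 0 below (20.7% and 6.1% of all genes), and without both replicate 1 libraries, 5 lay above and 7 below (10.4% and 15.5% of all genes). PSMA4 (ENSSSCG00000001754, chromosome 7, 52928636 to 52937456), an alpha ring subunit, was at 11.7, 14.7 and 16.3 FPKM in the wild type libraries and at 17.4, 17.0 and 18.2 FPKM in the others. Its log2 fold change was 0.29 (95% interval -0.07 to 0.66, unadjusted p = 0.103 and adjusted p = 0.993 in limma). PSMC1 (ENSSSCG00000002433, chromosome 7, 118594313 to 118614339), an ATPase of the base, was at 27.2, 32.6 and 36.7 FPKM and at 40.5, 38.7 and 38.3 FPKM in the same order. Its log2 fold change was 0.28 (95% interval -0.07 to 0.64, unadjusted p = 0.105 and adjusted p = 0.993 in limma). In both genes wild type replicate 1 was lowest, and wild type replicate 3 was nearest to the leptin-overexpressing libraries. Without wild type replicate 1 the log2 fold change was 0.17 for both PSMA4 and PSMC1, and without both replicate 1 libraries it was 0.17 and 0.15.

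The constitutive catalytic subunits overlapped between the labels. PSMB6 was at 53.6, 72.5 and 80.2 FPKM in the wild type libraries and at 81.5, 72.6 and 71.7 FPKM in the leptin-overexpressing libraries. PSMB7 was at 62.7, 86.7 and 102 FPKM and at 92.8, 87.6 and 92.7 FPKM. Their log2 fold changes were both 0.15, and both turned below 0 without wild type replicate 1 (-0.021 and -0.045) and without both replicate 1 libraries (-0.079 and -0.059). Without wild type replicate 3 they were 0.26 and 0.30, and with median-of-ratios scaling 0.081 and 0.082. In the alpha ring, 6 of 6 point estimates were above 0, from 0.033 (PSMA2) to 0.29 (PSMA4). In the ATPase ring, 5 of 5 were, from 0.051 (PSMC6) to 0.28 (PSMC1). Among the other genes of the regulatory particle, 6 of 7 were, from -0.0092 (PSMD2, a scaffold of the base) to 0.17 (PSMD14, the enzyme that removes ubiquitin from substrates). Without wild type replicate 1 these counts were 3 of 6, 2 of 5 and 3 of 7, and without both replicate 1 libraries they were 3 of 6, 1 of 5 and 3 of 7. PSMD14 was at 9.50, 12.4 and 13.2 FPKM and at 13.6, 14.6 and 11.7 FPKM, with overlap. Its value was 0.044 without wild type replicate 1, 0.11 without leptin-overexpressing replicate 2 and 0.26 without wild type replicate 3. It was 0.026 without both replicate 1 libraries and 0.11 with median-of-ratios scaling.

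The caps that are not induced by interferon gamma also missed the threshold. PSME3, the nuclear cap subunit also called PA28 gamma, was at 28.7, 29.6 and 28.1 FPKM in the wild type libraries and at 32.5, 24.9 and 31.5 FPKM in the leptin-overexpressing libraries. The wild type values all lay inside the range of the others, and the log2 fold change of 0.028 turned to -0.036 with median-of-ratios scaling, to -0.041 and -0.019 without leptin-overexpressing replicate 1 or 3 and to -0.045 without both replicate 1 libraries. It was 0.15 without leptin-overexpressing replicate 2. PSME4 was at 12.2, 10.5 and 11.9 FPKM and at 11.2, 10.7 and 10.03 FPKM, a log2 fold change of -0.11 (95% interval -0.43 to 0.21). It lay between -0.17 and -0.071 under the settings that can move it, and was -0.11 without both replicate 1 libraries. The assembly chaperones help the alpha ring to form. PSMG1 was at 10.2, 12.8 and 12.2 FPKM and at 14.2, 11.8 and 14.99 FPKM, and PSMG4 at 34.2, 52.2 and 52.3 FPKM and at 57.9, 42.4 and 46.4 FPKM, both with overlap. Without both replicate 1 libraries their log2 fold changes were 0.082 and -0.23, against 0.20 and 0.094 with all libraries. Without wild type replicate 1 they were 0.11 and -0.11, and without leptin-overexpressing replicate 1 that of PSMG4 was -0.032. PSMG4 was at 0.19 without wild type replicate 2, without wild type replicate 3 and without leptin-overexpressing replicate 2. With median-of-ratios scaling it was at 0.029. PSMG3 was at 3.29, 14.6 and 9.76 FPKM in the wild type libraries, a 4.43-fold range within the 1 label, and at 10.3, 6.92 and 8.37 FPKM in the others. Its mean FPKM was lower in the leptin-overexpressing libraries (8.52 against 9.21) while its log2 fold change was 0.072. The sign rested on single libraries, with -0.46 without wild type replicate 1, 0.47 without wild type replicate 2 and -0.058 without leptin-overexpressing replicate 1. The PSMG3 value was -0.59 without both replicate 1 libraries and 0.018 with median-of-ratios scaling. PSMC3IP was at 1.65, 1.27 and 3.67 FPKM and at 4.02, 2.68 and 2.01 FPKM, a log2 fold change of 0.33 with overlap. It was 0.64 without wild type replicate 3, 0.12 without wild type replicate 2, 0.13 without leptin-overexpressing replicate 1, 0.50 without leptin-overexpressing replicate 3 and 0.034 without both replicate 1 libraries.

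The immune subunits were then set against the other members within each library, where scaling of the whole library has little weight (the difference between labels was 0.10 with and without median-of-ratios scaling). The mean log2(FPKM + 1) of the 4 immune subunits exceeded that of the 27 others by 2.57, 2.75 and 2.60 in wild type replicates 1, 2 and 3. It did so by 2.54, 2.86 and 2.84 in leptin-overexpressing replicates 1, 2 and 3. As folds of these means, the immune subunits stood at between 5.80 and 7.24 times the rest. Each gene has equal weight in the means, and the rest include PSMC3IP and the assembly chaperones. The fold is therefore not that of each immune subunit over its constitutive counterpart. The means were 2.64 ± 0.099 (SD, n = 3) and 2.74 ± 0.18 (SD, n = 3), a difference of 0.10 that is smaller than the spread among the leptin-overexpressing libraries. Leptin-overexpressing replicate 1 was the lowest of all 6, and replicates 2 and 3 of that label were the highest. Without both replicate 1 libraries the difference was 0.17, and with any 1 library left out it lay between 0.047 and 0.21. As members were chosen with earlier results known, no p is given for this score. The median log2 fold change was 0.22 for the immune subunits and 0.094 for the others, and with median-of-ratios scaling 0.15 and 0.029. These medians were 0.065 and -0.021 without wild type replicate 1, and without both replicate 1 libraries 0.12 and -0.059.

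The RNA of an inducible catalytic subunit could be set against that of the subunit it replaces for 1 pair, PSMB9 against PSMB6. Such a ratio does not show which subunit was built into proteasomes. PSMB9 is taken here at the locus that carries its symbol, and its level is uncertain for the reasons given with the MHC region below. The ratio of their FPKM was 1.85, 2.92 and 1.90 in the wild type libraries and 1.93, 2.69 and 2.33 in the leptin-overexpressing libraries. PSMB9 was thus above PSMB6 in 6 of 6 libraries, by 2.22 ± 0.60 times (SD, n = 3) and 2.31 ± 0.38 times (SD, n = 3). The ranges overlapped almost entirely, with a difference in log2 ratio of 0.079 that was -0.037 without wild type replicate 1, 0.29 without wild type replicate 2, -0.018 without wild type replicate 3, 0.21 without leptin-overexpressing replicate 1, -0.037 without leptin-overexpressing replicate 2 and 0.089 without both replicate 1 libraries.

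**Figure D4:**
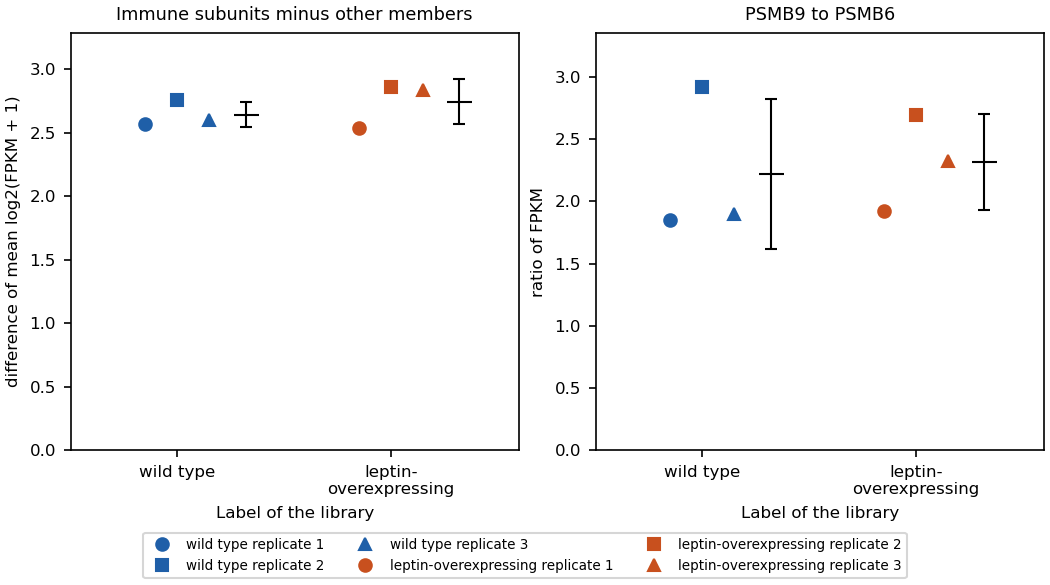
Left, mean log2(FPKM + 1) of the 4 immune subunits minus that of the 27 other members in each library; right, the FPKM ratio of PSMB9 to PSMB6. Black marks give the mean and SD of 3 libraries, and in both panels the labels overlap, with means of 2.64 and 2.74 on the left and of 2.22 and 2.31 on the right.

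PSMB8 and PSMB9 lie in the MHC region beside TAP1 and TAP2, which encode the transporter that carries peptides into the endoplasmic reticulum. In the deposited table this group of 4 genes occurs at 2 places on chromosome 7, in the same order TAP2, PSMB8, TAP1, PSMB9. The starts of the paired loci were 154238 to 155109 bp apart. The second PSMB8 locus (ENSSSCG00000026951, 29269957 to 29273035) and the second PSMB9 locus (ENSSSCG00000001463, 29283698 to 29288735) carry no symbol in the table and were named from a reference list of pig gene identifiers, so they are not among the 31 members. The second PSMB8 locus was at 74.8, 105 and 77.0 FPKM in the wild type libraries and at 69.3, 105 and 110.3 FPKM in the leptin-overexpressing libraries. It held 19.4% to 23.9% of the level of the first locus in each library. The second PSMB9 locus was at 30.6, 56.8 and 43.6 FPKM and at 42.4, 54.1 and 54.0 FPKM, which is 26.9% to 32.4% of the first. Reads of near-identical copies can be shared out by the quantification, so the level of each locus is uncertain. Summed over both loci, PSMB8 was at 392, 549.9 and 463 FPKM and at 426, 549 and 572 FPKM, and the immune subunits exceeded the rest by 0.10 more in the leptin-overexpressing libraries, as before. The listed spans of PSMB9 and TAP1 also overlap by 807 bp, and the use of strand in counting is not given in the sources used here, although the libraries were strand-specific.

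**Figure D5:**
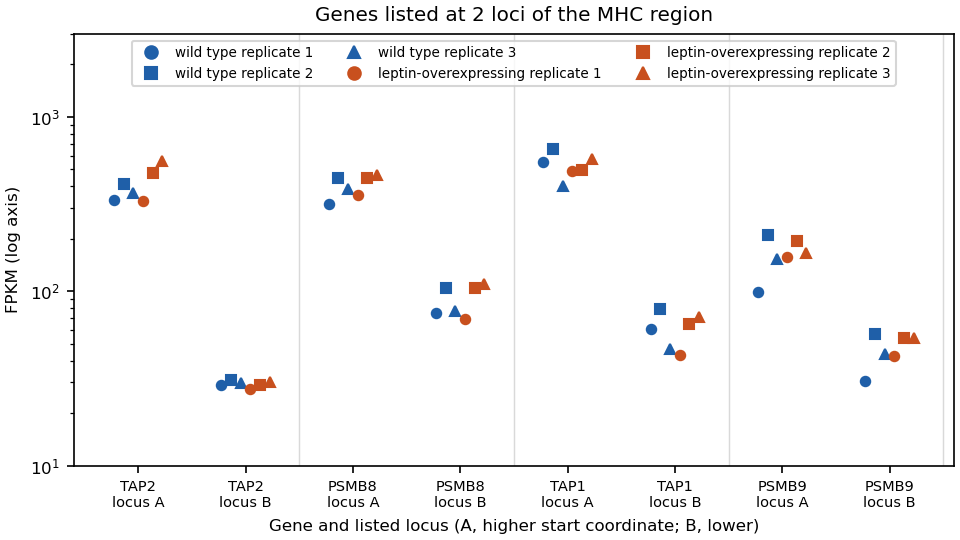
FPKM on a log axis of TAP2, PSMB8, TAP1 and PSMB9 at both loci listed for each, 1 point per library. Locus A was the higher in every library for all 4 genes, and the labels overlap at PSMB8 locus B (69.3 to 110.3 FPKM) as at locus A.

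The partners of the immunoproteasome in peptide supply, and the factors that induce it, were read as a list of 24 symbols. Of these, 19 rows were tested, 0 of them with an unadjusted p under 0.05 in limma in either direction (1.98% of all genes higher, 1.19% lower), and their median log2 fold change was 0.064. TAP2, at the locus with the symbol in the table, was at 332, 409.95 and 364 FPKM in the wild type libraries and at 329.8, 479 and 558 FPKM in the leptin-overexpressing libraries. Singled out after its values were seen, it had the same 3 libraries at the top (leptin-overexpressing replicates 2 and 3 and wild type replicate 2) as the immune subunits measured against the rest. TAP1 was at 553, 653 and 401 FPKM and at 490, 499 and 577 FPKM, with wild type replicate 2 highest. IRF1, the transcription factor that acts on interferon-responsive promoters, was at 189, 215 and 225 FPKM and at 217, 271 and 299 FPKM, which is 0.31 higher on the log2 scale and did not pass the test (adjusted p = 0.993 in limma).

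Interferon-stimulated genes numbered 34 of 44 symbols, with 0 higher and 1 lower at an unadjusted p under 0.05 in limma (1.98% and 1.19% of all genes) and a median log2 fold change of -0.21. Their summed level was 4892, 7171 and 2616 FPKM in the wild type libraries and 2631, 5385 and 3697 FPKM in the leptin-overexpressing libraries. Wild type replicate 2 and leptin-overexpressing replicate 2 thus had the highest sums, and both also had the highest PSMB9 values and PSMB9 to PSMB6 ratios. Wild type replicate 1 came next by that sum and had the lowest PSMB9 value. The part of the interferon response in the spread of PSMB9 was not tested.

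The ubiquitin system that feeds the proteasome was read from a list of 40 symbols, with 24 rows tested. Of these, 0 had an unadjusted p under 0.05 in limma in either direction (1.98% of all genes higher, 1.19% lower), and the median log2 fold change was 0.037, against 0.059 over all genes tested. UBB, a polyubiquitin gene, was at 1430.3, 1332 and 1253 FPKM in the wild type libraries and at 1288, 1597 and 1250.2 FPKM in the leptin-overexpressing libraries, with overlap. VCP, the ATPase that extracts ubiquitinated proteins for the proteasome, was at 59.1, 79.3 and 77.4 FPKM and at 76.6, 68.7 and 73.8 FPKM, with wild type replicate 1 lowest. NFE2L2, a factor that acts on proteasome gene promoters under stress, was at 92.2, 88.5 and 77.0 FPKM and at 91.4, 99.2 and 95.5 FPKM, with overlap.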

How the data were processed

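RNA-seq libraries of PBMCs from 6 pigs were analysed from 1 table, in which the authors deposited 1 FPKM value per gene and library. Per the paper's methods, paired-end reads of 101 bp were mapped by Bowtie onto transcripts of Ensembl release 75, and RSEM gave the expression values. The submitters' processing notes name STAR 2.5, Cuffnorm and DESeq 1.22.1 instead, and no source settles which tools made the values. No genome build is named, so coordinates are those of the table. FPKM holds no counts, so depth is unknown and precision rests on 3 libraries per label. The authors' own fold changes, p-values and marks were not used. Columns were matched to samples by animal code.

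Groups were compared in R 4.3.3 with limma 3.58.1 (lmFit, eBayes) on log2(FPKM + 1), genotype only, two-sided, with Benjamini-Hochberg adjustment over the 10735 genes that reached 1 FPKM in 3 or more libraries. Each library came from a separate animal. The fit was tested on simulated data with 3 against 3 libraries. At an adjusted p under 0.05 in limma it called 62 of 100 genes with a planted log2 change of 1. It called 94 of 100 with a planted change of 2 and 5 of 10535 with none. Changes of the size seen in the members (at most 0.33) were not planted. Values are given in every library for the immune subunits, the catalytic subunits they replace, the caps, the chaperones, members whose groups did not overlap and the largest difference of each role. Members and lists were chosen with earlier results of these data known. Of 4000 rows without a symbol, 1504 were named by the reference list, and among the rows with a symbol in both, 309 differed. Alternatives were another pseudocount (0.1), other filters, median-of-ratios scaling, other variance models, a replicate block and libraries left out. No sequences are shown, and some genes of the lists are not reported here.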

Additional observations from a re-analysis of the deposited data

How the results depend on the processing

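No member of the proteasome families reached an adjusted p under 0.05 in limma under any of the 14 alternatives, the replicate block (0 members) included. At the unadjusted p the count of higher members was 0, or 1 (PSMC3IP) without wild type replicate 3, a range of 0 to 1 with one library left out. The number of members with a log2 fold change above 0 ranged from 14 to 30 with one library left out, the lowest without wild type replicate 1, and was 13 without both replicate 1 libraries. Over all genes, the count at the adjusted p was 1. It was 0 when each library had to reach 1 FPKM, 0 without moderation, 0 without both replicate 1 libraries, 2 with the replicate block and from 0 to 3 with one library left out. The cause was not tested. The replicate numbers belong to different animals, and same-numbered libraries had correlations of -0.284, 0.135 and -0.00728 between their deviations. These correlations cannot show whether same-numbered libraries were handled together, which the labels do not state. The median log2 fold change of the immune subunits stayed above 0, from 0.065 to 0.27 with one library left out. That of the other members ranged from -0.021 to 0.17. Other member lists were chosen after seeing the data (PSMC3IP left out, both loci summed, the rest limited to core and regulatory particle, rows named by the reference list added), and none moved a value by more than the spread between libraries. Read depth is unknown, 3 libraries per label set the precision, and a p that misses the threshold does not show that levels were equal.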

Other observations

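Besides the second loci of PSMB8 and PSMB9, 5 rows without a symbol in the table carry the name of a proteasome subunit in the reference list. PSMA1, an alpha ring subunit, was at 36.5, 54.6 and 49.1 FPKM in wild type replicates 1, 2 and 3 and at 49.0, 51.0 and 53.1 FPKM in leptin-overexpressing replicates 1, 2 and 3. PSMD1, a scaffold of the base, was at 7.04, 9.08 and 10.5 FPKM and at 9.14, 8.65 and 9.53 FPKM. PSMD3, a lid subunit, was at 29.7, 38.9 and 44.0 FPKM and at 42.2, 35.8 and 39.6 FPKM, and PSMD6, another lid subunit, at 30.8, 38.1 and 41.8 FPKM and at 40.0, 36.5 and 35.7 FPKM. PSMD5, an assembly chaperone of the base, was low, at 1.13, 1.97 and 1.58 FPKM and at 2.10, 1.27 and 2.31 FPKM. In all 5 the groups overlapped and wild type replicate 1 was lowest, as it was for 23 of the 31 members.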
